A study of Rattus norvegicus with 6 samples.

Results

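Heat shock chaperones are proteins that fold, refold or hold other proteins, and 10 of their genes were followed here: Hspa1a, Hspa1b, Hspa8, Dnajb1, Hsph1, Bag3, Hspb1, Hsp90aa1, Hspd1 and Hspe1. The members were taken by gene symbol from the count table, and all 10 were found among its 29884 genes. RNA came from trigeminal ganglia of wild type rats, 3 injury samples and 3 conduit samples. The injury samples had chronic constriction of the infraorbital nerve (CCI-ION), a model of trigeminal neuralgia, and the conduit samples had the same constriction followed by the SFM-Gel @NGC-Light treatment, which the series title describes as a nerve conduit driven by light. Strain, age and sex were not given in the labels, and no uninjured ganglion was analysed here, so a level shared by both groups cannot be set against a resting one. The labels put the injury samples at days 14, 15 and 16 after injury and the conduit samples at days 17, 18 and 19. These days rise by 1 from sample to sample, and nothing else in the sources used shows when each ganglion was taken. Taken at face value, day and treatment cannot be told apart.

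In unstressed cells the heat shock factor Hsf1 is held inactive, partly by chaperones themselves. When misfolded proteins draw the chaperones away, Hsf1 forms trimers, binds repeats of the letters nGAAn in front of its target genes and raises their transcription, so that the inducible HSP70 genes Hspa1a and Hspa1b are sensitive readouts of protein-folding stress. Hspa8 and Hsp90aa1 are already abundant in unstressed neurons, where they serve vesicle traffic and the folding of kinases and receptors, and Hspb1 is a small heat shock protein known to be made by sensory neurons after axon damage.

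The repeats that Hsf1 recognises are shown for the members whose RefSeq promoter windows (build GRCr8, 250 bases before to 50 after the annotated start) hold them, because binding of Hsf1 to such repeats is what the heat shock response is known for. Windows were given for 8 members and not for Hspa1b and Hsp90aa1. Capitals mark the fixed letters of each match to GAANNTTC or TTCNNGAA, motifs that read the same on both strands, and overlapping matches form longer runs. Hspa8 is shown at chr8:50080264-50080563 (+ strand), Hspe1 at chr9:64084077-64084376 (+), Hspd1 at chr9:64084240-64084287 (-), Hsph1 at chr12:10427241-10427366 (+), Dnajb1 at chr19:41431095-41431174 (-), Hspb1 at chr12:26432381-26432452 (-) and Bag3 at chr1:192533306-192533357 (+).
Hspa8: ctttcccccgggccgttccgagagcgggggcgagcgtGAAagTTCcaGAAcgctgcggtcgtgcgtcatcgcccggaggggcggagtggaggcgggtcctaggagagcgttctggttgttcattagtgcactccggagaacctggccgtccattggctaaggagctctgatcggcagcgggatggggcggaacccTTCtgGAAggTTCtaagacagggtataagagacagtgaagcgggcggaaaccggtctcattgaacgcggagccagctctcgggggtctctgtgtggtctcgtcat
Hspe1: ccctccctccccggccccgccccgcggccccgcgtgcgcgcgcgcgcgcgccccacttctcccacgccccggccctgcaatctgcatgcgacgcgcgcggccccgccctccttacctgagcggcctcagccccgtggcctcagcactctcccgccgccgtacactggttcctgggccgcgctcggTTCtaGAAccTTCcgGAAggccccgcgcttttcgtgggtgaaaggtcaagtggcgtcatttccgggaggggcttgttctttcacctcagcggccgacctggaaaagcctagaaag
Hspd1: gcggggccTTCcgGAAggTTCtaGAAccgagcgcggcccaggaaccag
Hsph1: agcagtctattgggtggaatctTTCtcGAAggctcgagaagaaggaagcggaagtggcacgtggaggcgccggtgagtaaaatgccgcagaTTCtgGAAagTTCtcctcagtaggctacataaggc
Dnajb1: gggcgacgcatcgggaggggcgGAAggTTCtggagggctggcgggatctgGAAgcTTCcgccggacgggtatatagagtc
Hspb1: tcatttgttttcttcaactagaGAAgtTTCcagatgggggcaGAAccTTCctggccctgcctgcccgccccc
Bag3: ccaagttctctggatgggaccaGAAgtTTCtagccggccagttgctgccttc
Runs of 3 or more units, in which either motif goes on after 2 free bases with another GAA or TTC in the opposite orientation, were found in 4 of the 8 windows, those of Hspa8, Hsph1, Hspd1 and Hspe1. Among all 33469 promoter windows of the same length 0.798% held such a run. Hspa8 held it at 2 places, 1 of them ending 43 bases before the start, and in Hsph1 it ended 24 bases before the start. Hspd1 and Hspe1 lie head to head on opposite strands, their windows share 211 bases, and both hold the same run of 4 units. The shorter motif of 2 units was present in 7 of the 8 windows and in 15.9% of all windows. In Dnajb1, Hspb1 and Bag3 only this shorter form was found, and the Hspa1a window held neither form. The Hspa1a window is placed by the annotated start of a RefSeq model of 4045 bases, against 2456 for Hspa1b. Bases outside it were not searched, so Hspa1a is not shown to lack the repeats. The listed runs are matches of letters, not measured binding.

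The libraries held 40.2 M to 41.9 M counts. Sensory neuron markers were strong in all 6, with a summed level of 22230 to 31470 CPM over the 13 of 14 listed genes found (CPM, counts scaled to library size with TMM factors), so the tissue label was borne out. Markers of other tissues stood out in single libraries: skeletal muscle markers summed to 12840 CPM in conduit sample 2 and to between 101 and 844 CPM elsewhere, and pituitary markers to 6131 CPM in injury sample 1 and at most 16.9 CPM elsewhere. Neutrophil and mast cell markers summed to 666 CPM in injury sample 2, to 92.3 and 159 CPM in injury samples 1 and 3. In conduit they summed to 52.1 to 75.0 CPM. Proliferation markers were also highest in injury sample 2, at 162 CPM against 32.5 to 110 CPM elsewhere. Summed levels ranged over 4652 to 5405 CPM in injury and 523 to 1287 CPM in conduit for erythroid markers, and over 31000 to 38570 and 44350 to 51890 CPM for Schwann cell markers. In such bulk tissue, fewer cells of a type and less RNA per cell cannot be told apart. Nothing in the labels ties a library to its own rat, and the p-values therefore cover the spread between these 6 samples, which may be technical.

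The comparison of conduit with injury asked whether the treated ganglia held more or less chaperone RNA. None of the 10 members passed the edgeR quasi-likelihood test, in which all 10 passed the filter on low counts. At an adjusted p under 0.05 over all genes, 0 of 10 were called (edgeR adjusted p = 0.99981 for each), against 0.00607% of all 16478 genes tested, and 0 of 10 had an unadjusted p under 0.05, against 5.35% of all genes. DESeq2 also called 0 of 10, against 1.15% of the genes it gave an adjusted p, and limma-voom called 0 of 10, against 0.00607%. The libraries of the groups overlapped for all 10 members, and for 9.63% of all tested genes they did not overlap. At that share, 0 among 10 genes does not set the members apart. The fitted difference was above 0 for 6 members and below it for 4, with a median log2 fold change of 0.02, beside 0.0017 over all genes tested. That split moved to 5 above and 5 below with upper quartile factors and to 2 above and 8 below with limma on log2 FPKM, which changes both the scaling and the model, and without conduit sample 3 it was 1 above and 9 below. The size of the differences, taken without sign, had a median of 0.04 in the members and 0.11 over all genes. The sets were not matched for abundance, so the smaller value does not mark the members as steadier than other genes.

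**Figure D1:**
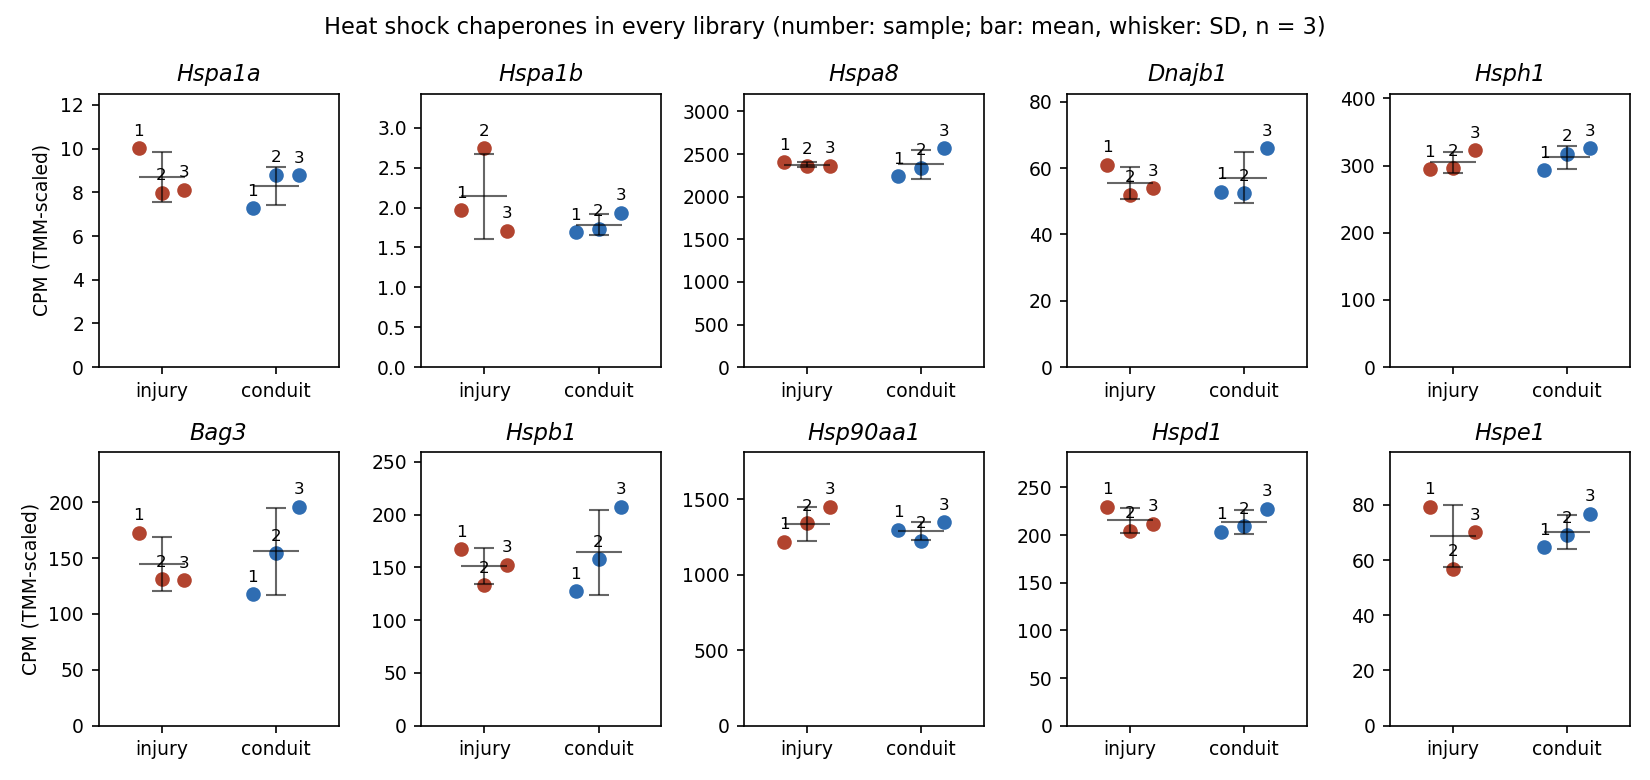
TMM-scaled CPM of each member in every library, with injury in red and conduit in blue; the number beside a point is the sample, the black bar the group mean and the whisker the SD (n = 3). Points of the 2 groups overlap in all 10 panels, and conduit sample 3 lies above the other conduit samples for Bag3 (196 CPM) and Hspb1 (207 CPM).

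The inducible HSP70 genes Hspa1a and Hspa1b, whose proteins are near-identical, were the least abundant members. Hspa1a was measured at 10.02, 7.99 and 8.12 CPM in the injury libraries, numbered 1 to 3 throughout, and at 7.26, 8.82 and 8.79 CPM in the conduit libraries, from 301 to 403 counts per library. Injury sample 1 was the highest and conduit sample 1 the lowest, and the groups overlapped, with conduit samples 2 and 3 above injury samples 2 and 3. Its log2 fold change was -0.07 (SE 0.16, 95% interval -0.45 to 0.31). Hspa1b stood at 1.96, 2.74 and 1.71 CPM in injury and at 1.69, 1.73 and 1.93 CPM in conduit. Injury sample 2 was above the other 5 libraries, with 116 counts against 69 to 79, and without it the log2 fold change of -0.26 (SE 0.29, 95% interval -0.94 to 0.42) became -0.04. Because the copies can share reads, their sum was taken as well: it was 10.9 ± 1.08 CPM in injury and 10.1 ± 0.975 CPM in conduit (SD, n = 3), a log2 fold change of -0.11 with a 95% interval of -0.44 to 0.23. How the authors' counting treated reads that match both copies is not stated by the labels or files, so the level of each copy is uncertain. In RefSeq the Hspa1a model also overlaps Hspa1l, a related HSP70 gene on the other strand, and without a known strand setting reads of that overlap cannot be assigned.

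Hspa8, the constitutive HSP70 that strips clathrin from vesicles, was the most abundant member. It stood at 2404, 2359 and 2365 CPM in injury and at 2237, 2340 and 2568 CPM in conduit. The 3 injury libraries lay inside the range of the conduit libraries, and the spread was wider in conduit (SD 169 CPM) than in injury (SD 24.6 CPM). Its log2 fold change was 0.0031 (SE 0.09, 95% interval -0.20 to 0.21). Per length, Hspa1a and Hspa1b together came to 0.268% ± 0.0241 of Hspa8 in injury and 0.245% ± 0.0131 in conduit (SD, n = 3), computed from FPKM (counts scaled to gene length and library total). This ratio ranged from 0.241% to 0.287% in injury and from 0.234% to 0.259% in conduit, so the groups overlapped here too.

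Dnajb1, Hsph1 and Bag3 are partners of HSP70: Dnajb1 is a J-domain protein that delivers substrates, Hsph1 (HSP110) exchanges its nucleotide, and Bag3 links it to small heat shock proteins and to autophagy. Dnajb1 stood at 61.0, 51.9 and 53.9 CPM in injury and at 52.9, 52.5 and 66.0 CPM in conduit. Injury sample 1 and conduit sample 3 were high and the other 4 libraries lay within 51.9 to 53.9 CPM. The log2 fold change was 0.04 (SE 0.12, 95% interval -0.25 to 0.32). Bag3 showed the same 2 libraries on top, with 173, 131 and 130 CPM in injury and 118, 154 and 196 CPM in conduit. It had the widest relative spread of the members, 1.66 times from the lowest to the highest library, and its log2 fold change of 0.11 (SE 0.20) had a 95% interval of -0.37 to 0.59. Without conduit sample 3 it was -0.09. Hsph1 was the steadiest member, at 295, 296 and 323 CPM in injury and 293, 318 and 326 CPM in conduit, 1.11 times from lowest to highest. Its log2 fold change was 0.04 (SE 0.09, 95% interval -0.17 to 0.24).

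Hspb1, the 1 small heat shock protein among the members, stood at 167, 133 and 152 CPM in injury and at 127, 158 and 207 CPM in conduit. Conduit samples 1 and 3 were the lowest and the highest of all 6 libraries, so that the conduit group spanned the injury group. Its log2 fold change of 0.12 was the highest of the 10 (SE 0.19, 95% interval -0.32 to 0.56), and it was -0.08 without conduit sample 3 and 0.28 without conduit sample 1. Hsp90aa1, the stress-responsive cytosolic HSP90, stood at 1221, 1342 and 1452 CPM in injury and at 1299, 1228 and 1350 CPM in conduit. Here injury sample 1 was the lowest library and injury sample 3 the highest, an order unlike that of Bag3 or Dnajb1. The log2 fold change was -0.05 (SE 0.10, 95% interval -0.28 to 0.18).

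Hspd1 (HSP60) and Hspe1 (HSP10) form the chaperonin that folds imported proteins in the mitochondrial matrix, the compartment that the study's title points to. Hspd1 stood at 230, 205 and 212 CPM in injury and at 204, 209 and 228 CPM in conduit, and its log2 fold change was -0.01 (SE 0.09, 95% interval -0.22 to 0.20). Hspe1 stood at 79.3, 56.9 and 70.0 CPM in injury and at 64.7, 69.1 and 76.7 CPM in conduit, a log2 fold change of 0.03 (SE 0.14, 95% interval -0.29 to 0.35). Injury sample 1 and conduit sample 3 were the 2 highest libraries for both genes, and the groups overlapped for both. The FPKM ratio of Hspd1 to Hspe1 was 0.876 ± 0.103 in injury and 0.841 ± 0.0251 in conduit (SD, n = 3), with injury sample 2 standing apart at 0.993.

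**Figure D2:**
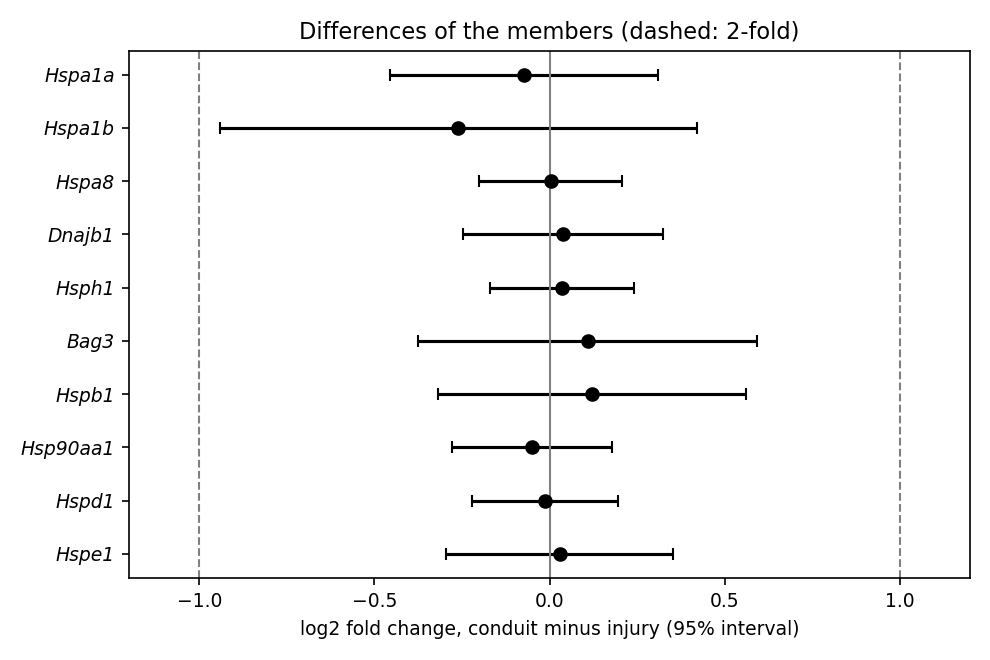
Log2 fold change of each member, conduit minus injury (x axis), with its 95% interval from the edgeR fit; dashed lines mark a 2-fold difference. All 10 intervals hold 0 and lie inside the dashed lines, and that of Hspb1 runs from -0.32 to 0.56.

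A p that misses the threshold does not show equal levels, so the intervals bound what these samples allow. For all 10 members the 95% interval lay within a 2-fold difference in either direction, and for 8 of 10 within a 1.5-fold difference, the exceptions being Hspa1b and Bag3. Expressed as fold, conduit over injury, the interval ran from 0.869 to 1.16 for Hspa8, from 0.857 to 1.15 for Hspd1 and from 0.824 to 1.13 for Hsp90aa1. Widest was that of Hspa1b, from 0.520 to 1.34. Each interval covers 1 gene at a time, not all 10 together.

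Levels between members were compared per length, as deposited FPKM. The order over the mean of all 6 libraries was Hspa8 (1130 FPKM), Hsp90aa1 (473), Hspb1 (176), Hspe1 (102), Hspd1 (86.9), Hsph1 (85.2), Bag3 (64.2), Dnajb1 (23.9), Hspa1a (2.10) and Hspa1b (0.801). Neighbours in this order were separated in every library range except Hspe1 with Hspd1 and Hspd1 with Hsph1, whose ranges overlapped. Hspa8 ranked 26 of 29884 genes and Hsp90aa1 ranked 93, while Hspa1a ranked 10996 and Hspa1b 13156. The 10 members together took 0.444% to 0.487% of all counts of a library, of which Hspa8 made up 49.6% to 51.8% and Hsp90aa1 26.3% to 30.5%. The position of Hspa1a depends on the gene length used for its FPKM, 4045 bases against 2456 for Hspa1b.

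**Figure D3:**
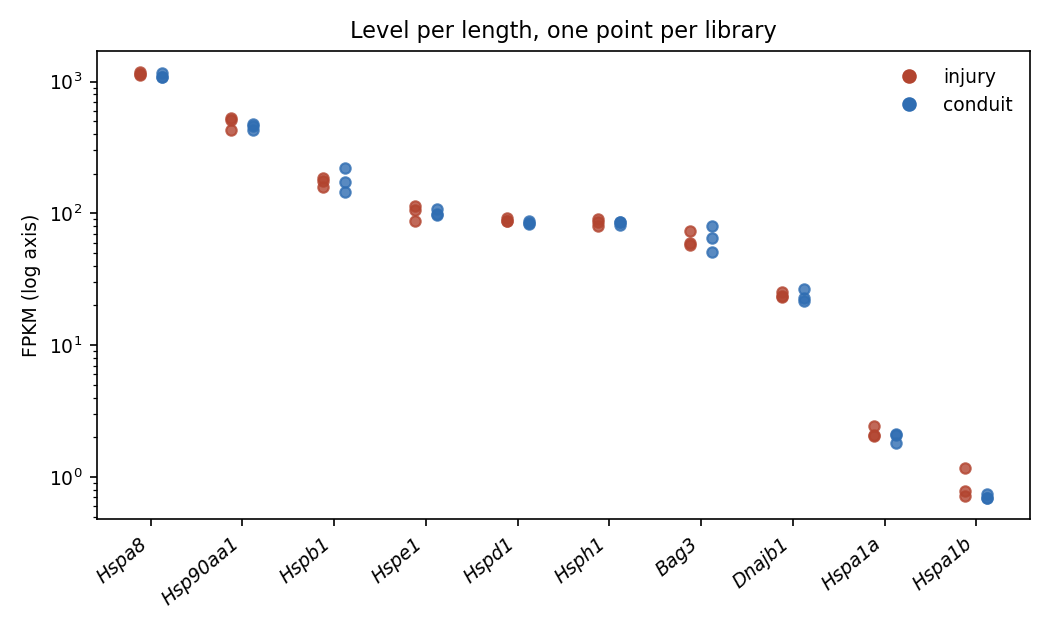
Deposited FPKM of each member on a log axis, 1 point per library, injury in red and conduit in blue, ordered by the mean of all libraries. Levels run from 1181 FPKM for Hspa8 in its highest library to 0.689 FPKM for Hspa1b in its lowest, and the groups overlap at every member.

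Variation between libraries did not follow the groups. For 8 of 10 members the highest CPM was in injury sample 1 or conduit sample 3, and for 7 of 10 the lowest was in conduit sample 1. These libraries were picked after the values were seen, and the share of all genes with the same extremes was not counted. The median deviation of the members from their own 6-library mean of log2 CPM was 0.10, -0.07 and -0.02 in injury samples 1, 2 and 3 and -0.09, -0.01 and 0.10 in conduit samples 1, 2 and 3. Over all genes tested the same median stayed between -0.0053 and 0.0048, near 0 because TMM scaling centres most genes. It is therefore no yardstick for a small list. Sensory neuron markers had deviations of 0.17, -0.08 and -0.03 in injury and -0.21, -0.08 and 0.33 in conduit, highest in the same 2 libraries and lowest in the same 1. The 15 tested genes of HSP90 and its cochaperones had 0.12, -0.09 and -0.01 in injury and -0.12, -0.03 and 0.16 in conduit. The lists of CCT and prefoldin, of BAG cochaperones and of mitochondrial chaperones had the same highest and lowest libraries. The remaining lists did not share all of these extremes. The part of the neuronal markers in the chaperone levels was not tested. Without both injury sample 1 and conduit sample 3, an alternative chosen after seeing the data, 0 of 10 members were called, 4 were above 0 and 6 below.

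**Figure D4:**
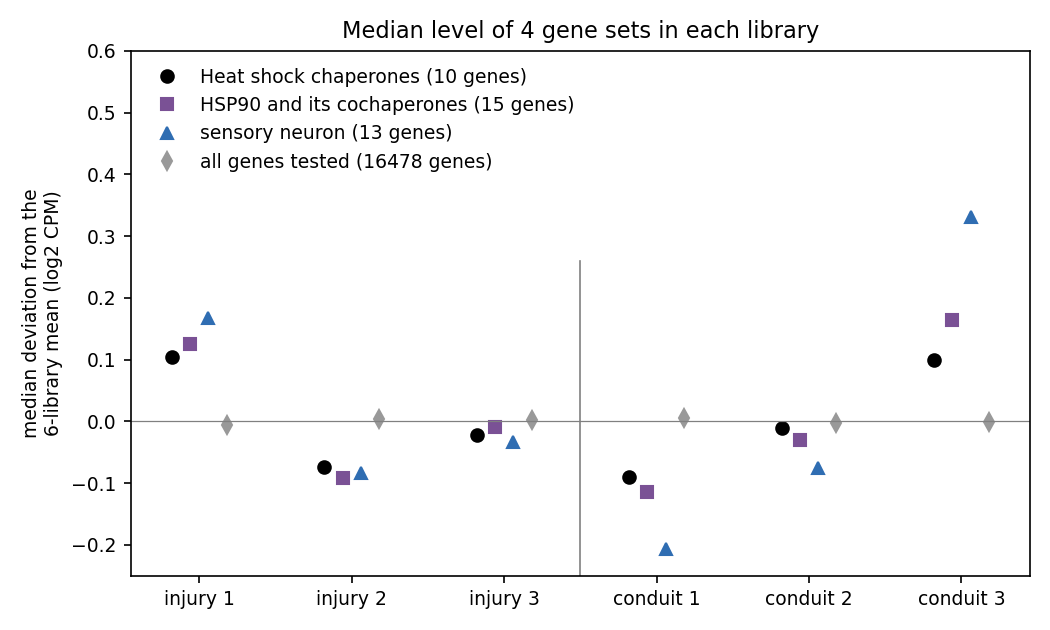
Median deviation of 4 gene sets from their 6-library mean of log2 CPM (y axis), 1 point per set and library. Members, HSP90 cochaperones and sensory neuron markers are all highest in injury sample 1 and conduit sample 3 and lowest in conduit sample 1. All genes tested stay near 0, where the scaling sets them.

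A set of 6 members, chosen after their values were seen (Hspa8, Dnajb1, Bag3, Hspb1, Hspd1 and Hspe1), varied together over the 6 libraries. Pearson's r of log2 CPM over their 15 pairs ranged from 0.56 to 0.94, with the highest value for Bag3 with Hspb1. It was 0.93 for Dnajb1 with Hspd1 and 0.89 for Hspd1 with Hspe1. Hspa1a, left out of that set, had r from 0.57 to 0.83 with each of its genes, and 0.04 with Hspa1b. Hsp90aa1 did not share this pattern, with r from -0.50 to 0.45 against the other members, nor did Hspa1b, with r from -0.53 to 0.20. Hsph1, the remaining member, had r from 0.25 (Hspd1) to 0.65 (Hspb1) with the genes of the set.  These values describe 6 libraries that share their scaling, with the low counts of Hspa1b adding counting error. The genes most like Hspa1b over the 6 libraries, among 12846 candidates, were Bltp2 (r = 0.988), Brd8 (0.986), Dock3 (0.982), Tbxa2r (0.974) and Recql (0.968), each highest in injury sample 2.

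Across batches the labels allow 1 comparison, since batch 2 holds injury sample 3 and conduit sample 1, while batch 1 holds injury and batch 3 conduit samples only. Within batch 2 all 10 members were lower in the conduit library, at log2 differences from -0.018 for Hspa1b to -0.26 for Hspb1, with a median of -0.13 and with no test, as there was 1 library of each group. Sensory neuron markers were also lower in that conduit library than in that injury library, at 22230 against 23940 CPM in sum. With batch as a term in the edgeR fit the median was also -0.13. Only batch 2 holds both groups, so that fit's difference rests on the same batch 2 libraries. Here and below it is no second result.

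In the rest of the chaperone network 0 genes were called by edgeR or DESeq2 in any of the other 8 lists of chaperones and heat shock factors, against 0.00607% and 1.15% of all genes. Of the 5 tested heat shock factor genes 4 were above 0 (2 of 5 on log2 FPKM, 1 of 5 with the batch term), and the median log2 fold change was 0.03, against -0.075 without conduit sample 3 and -0.13 with the batch term. Hsf1 itself stood at 28.6, 28.2 and 28.1 CPM in injury and at 28.8, 31.5 and 31.4 CPM in conduit. All 3 conduit libraries were above all 3 injury libraries, which held for 5.41% of all genes tested, and the log2 fold change of 0.11 (SE 0.08, 95% interval -0.09 to 0.31; edgeR adjusted p = 0.99981) did not pass the test. For the other HSP70 and HSP110 genes the median was 0.05 (9 tested, 8 above 0), for cytosolic DNAJ genes 0.02 (14 tested, 9 above 0) and for the nucleotide exchange and BAG cochaperones 0.05 (9 tested, 6 above 0). These tallies turned with the setting: in that order, 5, 6 and 5 genes were above 0 with upper quartile factors, 4, 3 and 4 with limma on log2 FPKM, and 4, 2 and 3 with the batch term. Without conduit sample 3 the median was -0.044 for the DNAJ genes and -0.026 for the nucleotide exchange and BAG cochaperones. Hspa2, an HSP70 gene, had a log2 fold change of 0.15, Dnajc6, the neuronal auxilin that works with Hspa8 on clathrin, had -0.11, and St13, an HSP70-interacting protein, had 0.10. St13 was higher in every conduit library, as were 5.41% of all genes tested, and Dnajc6 lower in every one, as were 4.22%. No gene of these lists had an unadjusted p under 0.05.

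HSP90 and its cochaperones had a median log2 fold change of -0.0063, with 7 of 15 above 0 and 8 below. Its sign also moved, to 0.049 when injury sample 1 was left out, to 0.050 when conduit sample 1 was and to 0.015 when conduit sample 2 was, and it was -0.12 with the batch term. Only 1 of the 15, Fkbp5, an immunophilin that glucocorticoids induce, had an unadjusted edgeR p under 0.05. Of all genes tested 5.35% did so in either direction and 2.36% in the lower direction. It stood at 30.9, 28.6 and 25.2 CPM in injury and at 21.9, 21.7 and 25.4 CPM in conduit, a log2 fold change of -0.30 (SE 0.12; edgeR adjusted p = 0.907), and conduit sample 3 overlapped injury sample 3. Hsp90ab1, the constitutive HSP90, was 1842 ± 152 CPM in injury and 1867 ± 187 CPM in conduit (SD, n = 3). The cytosolic chaperonin CCT and prefoldin, which fold actin and tubulin, had a median of -0.04 with 11 of 13 below 0, but 0.013 with 5 of 13 below 0 without injury sample 1, and Tcp1 and Cct8 were lower in every conduit library, as were 4.22% of all genes tested. Their log2 fold changes were -0.07 and -0.08. Mitochondrial chaperones and proteases had a median of 0.01 over 14 tested genes, 9 above 0, but below 0 with upper quartile factors (6 above 0), on log2 FPKM (3), with the batch term (5), without conduit sample 3 (6) and without injury sample 2 (7). Hspa9, the HSP70 of the matrix, was 246 ± 10.6 CPM in injury and 255 ± 13.2 CPM in conduit (SD, n = 3).

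The other small heat shock proteins stood further from 0, with a median log2 fold change of 0.73 over 6 tested genes, all 6 above 0 (5 of 6 on log2 FPKM), none called and 2 at an unadjusted edgeR p under 0.05, against 2.99% of all genes in that direction. Cryab, alpha-B crystallin, which glia and muscle make, stood at 285, 214 and 252 CPM in injury and at 306, 340 and 347 CPM in conduit. Every conduit library was above every injury library for Cryab (log2 fold change 0.40, SE 0.12, edgeR adjusted p = 0.748). The same held for Hspb2, its genomic neighbour, at 23.1, 14.8 and 22.5 CPM in injury and 27.9, 30.7 and 26.4 CPM in conduit (0.49, SE 0.18, edgeR adjusted p = 0.879). Such separation in the higher direction was seen for 5.41% of all genes tested. Hspb6 stood at 20.5, 14.2 and 16.4 CPM in injury and 13.6, 68.9 and 18.2 CPM in conduit, and Hspb7 at 15.6 CPM in conduit sample 2 and 0.917 to 3.16 CPM elsewhere. That is the library with 12840 CPM of summed skeletal muscle markers, and both genes are known from muscle. The part of muscle in the levels of this list, Cryab included, was not tested. Without conduit sample 2 the list's median was 0.22, with 4 of 6 genes above 0, and the log2 fold change of Cryab was 0.39. In batch 2 the median was -0.13 and Cryab was at 0.28. The summed Schwann cell markers did not overlap between the groups either, and their part in the Cryab level was not tested. Hspb8, the partner of Bag3, stood at 237 ± 32.0 CPM in injury and 242 ± 41.0 CPM in conduit (SD, n = 3).

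**Figure D5:**
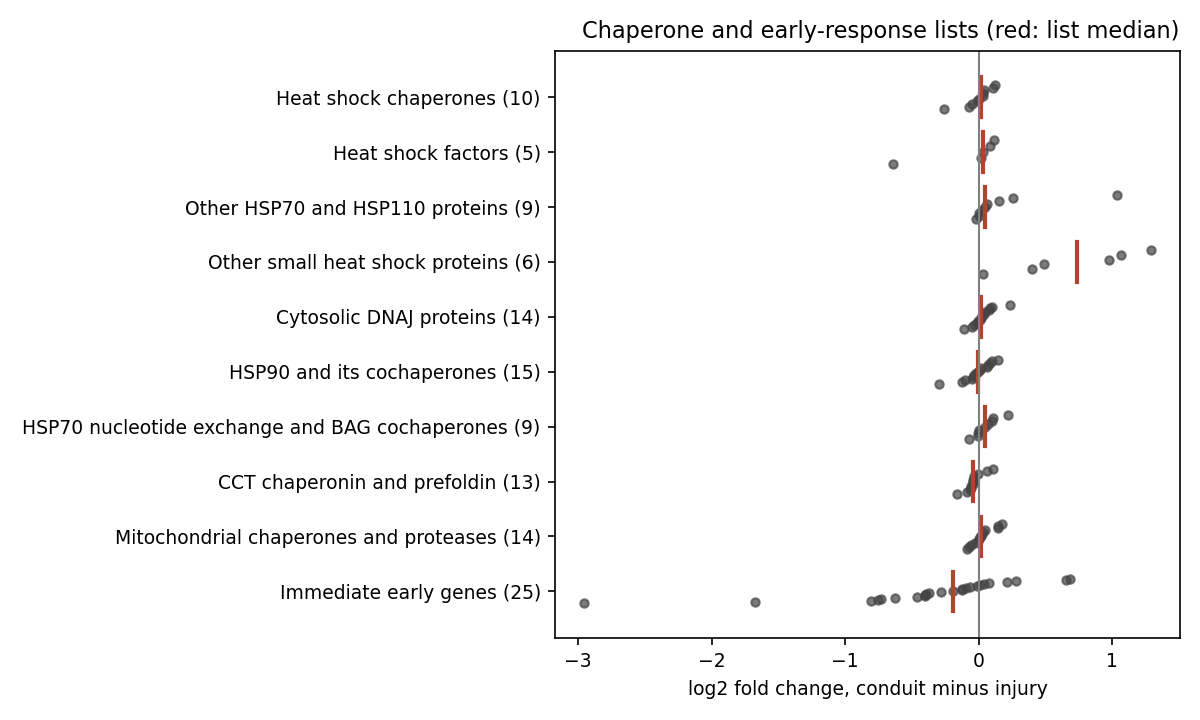
Log2 fold change, conduit minus injury, of every tested gene in the members and 9 other lists (number tested in brackets), with the list median in red. The members and 7 of the lists centre between -0.04 and 0.05, the other small heat shock proteins centre on 0.73 and the immediate early genes spread from -2.96 to 0.68.

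Immediate early genes, which cells transcribe within minutes of a stimulus or of tissue handling, had library medians of the deviation from -0.19 to 0.43, a wider range than that of the 10 members (-0.09 to 0.10) and narrower than that of the other small heat shock proteins (-0.49 to 0.90). Of the 25 tested, 18 were below 0 and 7 above, with a median log2 fold change of -0.19, 0 called by edgeR against 0.00607% of all genes tested. At an unadjusted edgeR p under 0.05, 6 were lower and 1 higher, against 2.36% and 2.99% of all genes. DESeq2 called 1 gene of the list, in the higher direction, against 111 called higher among the 18029 genes it gave an adjusted p. Fosb, a subunit of the AP-1 transcription factor, stood at 9.30, 45.1 and 12.5 CPM in injury and at 5.77, 2.11 and 0.703 CPM in conduit (log2 fold change -2.96, SE 0.94; edgeR adjusted p = 0.799), with injury sample 2 far above the rest. Without that library its log2 fold change was -1.93, and it was -1.11 with the batch term. Ier2 stood at 34.3, 39.1 and 20.9 CPM in injury and at 23.9, 18.0 and 14.1 CPM in conduit. Injury sample 2, highest for both, was also the highest library for Hspa1b and the lowest for Dnajb1 and Hspe1. Without injury sample 2 the median of the early genes was 0.03, and within batch 2 it was 0.19. Egr2, which also drives myelination and stands on the Schwann cell list, was the 1 gene higher at that threshold, at 39.2 ± 4.08 CPM in injury and 62.9 ± 3.10 CPM in conduit (SD, n = 3; edgeR adjusted p = 0.203).

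Genes were also grouped by the longer promoter motif in place of their names. Of the tested genes 71 held a run of 3 or more units in their RefSeq window, and 67 of these were genes other than the members. The median log2 fold change was 0.0097 for the 71 and for the 67, beside 0.0011 over the 12830 tested genes with a window. Injury and conduit libraries were fully separated for 8.45% of the 71 and 8.96% of the 67, beside 9.37%. None of the 71 was called, and neither was any of the 12830. At an unadjusted edgeR p under 0.05, 6 of the 71 were higher and 0 lower, against 384 and 283 of the 12830.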

How the data were processed

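RNA-seq was made from total RNA extracted with TRIzol, with mRNA purified before library construction, per the labels' protocols. The tools HISAT2, HTSeq, fastp, SAMtools and DESeq2 and the build mRatBN7.2 are listed in the submitters' processing notes without their roles; no source here gives versions, annotation or strandedness. The deposited counts are whole numbers per gene symbol with no scaling, and the deposited FPKM values are the same counts per gene length and library total, so they are no second measurement.

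The counts were filtered with filterByExpr (minimum count 10), scaled by TMM and compared, conduit against injury, by edgeR 4.0.16 (robust quasi-likelihood F test, no covariate) in R 4.3.3, with Benjamini-Hochberg adjustment over all 16478 genes tested and a threshold of 0.05. Standard errors are the fold change over the root of F, and 95% intervals use the fit's degrees of freedom. Log2 CPM used a prior count of 2. With 3 against 3 libraries an exact permutation test could give no p under 0.1. No 2 replicates agreed within sampling noise. Alternatives used DESeq2 1.42.0, limma 3.58.1 (voom, and log2 of FPKM plus 1 or 0.1), other scalings and filters, batch, a replicate block and each library left out.

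Members and lists were chosen with earlier results of these data known. The naming rule took all 10 members, Hsf1, up to 3 genes per list by the smallest p, and the 5 genes most like Hspa1b; Hspa9, Hsp90ab1, Hspb6, Hspb7 and Hspb8 were named outside it, after their values were seen. RefSeq tables, on GRCr8 and so not on the files' build, matched all 10 members by symbol and gave names and promoter sequences.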

Additional observations from a re-analysis of the deposited data

How the results depend on the processing

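No member was called under any of the 18 tested alternatives. The genes called over the whole table, 1 as reported, numbered 6 with no filter, 208 with DESeq2, 9 and 5 with limma on log2 FPKM plus 1 and plus 0.1, 0 with the batch term and 42 without both injury sample 1 and conduit sample 3, and 0 to 38 when single libraries were left out. The members' median log2 fold change of 0.02 was -0.13 with the batch term and in batch 2 alone, which rest on the same libraries. It was -0.081 to 0.064 when single libraries were left out.

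Signs of single members were not stable. With the batch term and within batch 2, Bag3 (-0.14), Dnajb1 (-0.029), Hspa8 (-0.081), Hspb1 (-0.26), Hspe1 (-0.11) and Hsph1 (-0.14) lay below 0. On log2 FPKM plus 1 and plus 0.1, Dnajb1 (-0.021 and -0.022), Hspa8 (-0.054 in both), Hspe1 (-0.016 in both) and Hsph1 (-0.020 in both) did, and Hspa8 also with upper quartile scaling (-0.024). Without both injury sample 1 and conduit sample 3, chosen after seeing the data, the values were -0.0013 for Dnajb1, 0.0023 for Hspa1a, -0.040 for Hspa8 and -0.014 for Hsph1. Leaving out single libraries gave -0.089 to 0.28 for Bag3, -0.079 to 0.12 for Dnajb1, -0.10 to 0.012 for Hsp90aa1, -0.13 to 0.051 for Hspa1a, -0.054 to 0.047 for Hspa8, -0.083 to 0.28 for Hspb1, -0.062 to 0.046 for Hspd1 and -0.091 to 0.16 for Hspe1; Hspa1b (-0.40 to -0.042) and Hsph1 (0.0038 to 0.080) kept their sign there. The cause of these shifts was not tested.

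The replicate block called 0 genes and 0 members. Same-numbered samples did not deviate together (r = -0.417, 0.0574 and -0.0715 for numbers 1, 2 and 3), so the numbers give no pairing. Depth limits Hspa1b most, at 69 to 116 counts per library.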
